A study of Mus musculus with 16 samples.

Results

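Carbonic anhydrase transcripts were read in RNA of whole mouse kidneys with and without an induced deletion of the transcription factor Hes1, an effector of Notch receptors. The family members described are Car2, Car3, Car4, Car5b, Car8, Car12, Car13, Car14 and Car15, taken by symbol from a table of 28971 genes, and all 9 were found. The 3 libraries called Hes1 cKO come from animals with the alleles Pax8-rtTA, TRE->Cre and Hes1 f/f, and the 4 control libraries from littermates labelled wild type, whose transgenes the labels leave unstated. Mice of both groups drank doxycycline (1 mg/mL, in 5% sucrose) for 1 week from the age of 3 weeks. Pax8 drives rtTA along the whole kidney tubule and the collecting duct, so the deletion is not limited to the collecting duct, and whole-kidney RNA averages over all cell types. The numbers 1 to 3 and 1 to 4 only name libraries, since the column names are not tied to single animals and give no sex. The titles name 16 kidneys, and the 7 libraries whose column names give the group were used. P-values measure the spread between these libraries. Each group held libraries of both sexes by their transcripts, so this spread is not technical alone.

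Carbonic anhydrases turn carbon dioxide and water into bicarbonate and a proton, and back. In the proximal tubule this reaction serves the recovery of filtered bicarbonate, and in the intercalated cells of the collecting duct it feeds the pumps and exchangers that secrete acid or base. The members differ in where they sit: in the cytosol (Car2, Car3, Car13), in mitochondria (Car5b), on the outer cell surface (Car4, Car12, Car14, Car15), or, for the inactive relative Car8, in the cytosol without enzyme activity.

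The coding sequence at the zinc site is printed for the member that rose, for the most abundant one and for another surface enzyme. Active carbonic anhydrases hold a zinc ion with 3 histidines. The stretches below run 5′ to 3′ from the GENCODE M21 transcripts, and the capitals mark the codons that align with the 3 zinc-binding histidines of Car2.
Car12: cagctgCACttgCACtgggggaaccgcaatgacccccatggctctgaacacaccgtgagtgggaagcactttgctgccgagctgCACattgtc
Car2: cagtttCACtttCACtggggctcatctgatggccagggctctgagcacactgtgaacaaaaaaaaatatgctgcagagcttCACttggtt
Car14: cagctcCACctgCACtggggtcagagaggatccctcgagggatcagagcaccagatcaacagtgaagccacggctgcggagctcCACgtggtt
All 3 codons are CAC, a histidine codon, in each of these genes, while the bases between them differ. Car3, Car5b and Car13 have CAT, the other histidine codon, at 1 or 2 of them. The encoded proteins of Car12 and Car14 share 37.5% and 37.2% of aligned residues with Car2, the closest member to Car2 is Car3 (56.9%) and the most distant is Car4 (33.3%).

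The libraries held 16973931 to 20420422 counts. Genes were compared by edgeR's quasi-likelihood test over 15615 tested genes with Benjamini-Hochberg adjustment, and a gene is called at an adjusted p under 0.05. Levels are given as CPM, each count divided by its library's TMM-scaled size (edgeR's cpm). Hes1 was at 17.2 to 19.8 CPM in the Hes1 cKO libraries and at 42.8 to 67.6 CPM in the control libraries, without overlap. Some libraries stood apart. The 5 adrenal cortex markers summed to 813 CPM in Hes1 cKO 3, 639 CPM in control 1 and 159.9 CPM in control 2, against 2.57 to 40.05 CPM in the rest; their part in the results was not tested. Control 1 also had the highest sum of 8 proximal tubule markers, and both groups held both sexes by their transcripts. Hes1 cKO 3, control 3 and control 4 had high Xist, a transcript of females, and 0 or 1 counts of each of the Y-linked genes Ddx3y, Uty, Kdm5d and Eif2s3y, which the other 4 libraries expressed.

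Car12 rose in Hes1 cKO, and no other member was called in either direction. This makes 1 of 9 members called higher and 0 lower. Of all tested genes 0.339% were called, 0.320% higher and 0.0192% lower. The median log2 fold change of the 9 members was -0.13 and that of all tested genes -0.0064. Of the 8 members that were not called, Car3 had a higher fitted level in Hes1 cKO and 7 a lower one. At an unadjusted p under 0.05 there were 2 members, Car12 and Car4, against 5.95% of all tested genes.

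Car12 encodes an enzyme with one membrane span and its active site outside the cell, found on basolateral membranes in the kidney. The gene (ENSMUSG00000032373) lies at chr9:66713686-66766845 on the plus strand of GRCm38, and no exon of another annotated gene overlaps its exons. It was at 729, 727 and 706 CPM in Hes1 cKO 1, 2 and 3, whereas control 1, 2, 3 and 4 read 366, 437, 382 and 411 CPM. All 3 Hes1 cKO libraries lay above all controls, the lowest of them 1.61-fold over the highest control. Groups without overlap and higher in Hes1 cKO were found for 3.71% of tested genes. The means were 721 ± 13.0 CPM (SD, n = 3) and 399 ± 31.7 CPM (SD, n = 4). The log2 fold change was 0.85 (SE 0.088, 95% interval 0.66 to 1.05), a 1.81-fold rise with an interval of 1.58 to 2.07-fold and an edgeR adjusted p of 0.00357. The exact two-sided permutation test on log2(CPM + 1) gave p = 0.0286, the smallest that the 35 splits of 3 and 4 libraries allow. In whole-kidney RNA, more cells that express Car12 and more Car12 RNA per cell cannot be told apart.

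**Figure D1:**
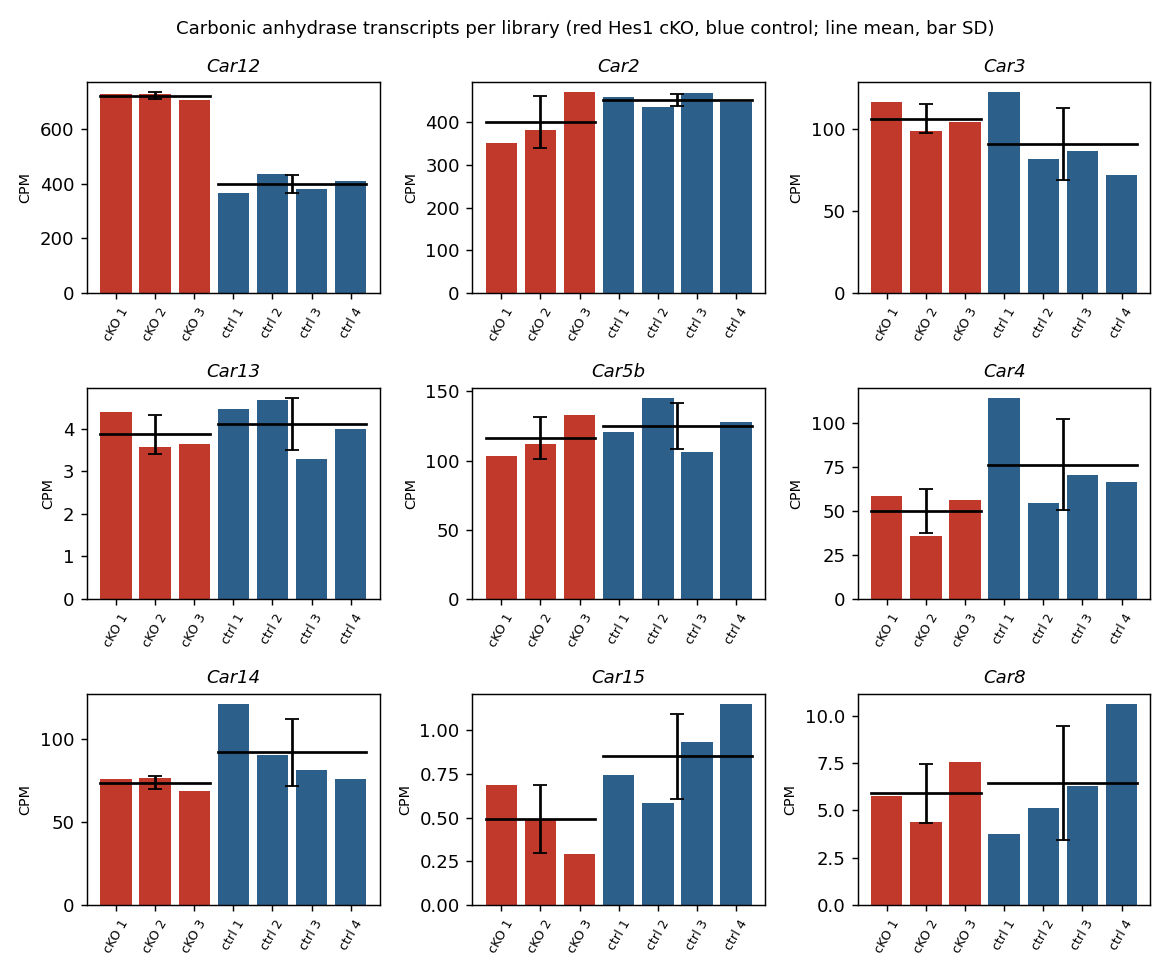
Level of each of the 9 carbonic anhydrase transcripts in CPM (y axis, from 0, own scale per panel) in each library (x axis), with red bars for Hes1 cKO, blue for control, a black line at the group mean and an error bar of 1 SD. The Car12 panel shows 706 to 729 CPM in Hes1 cKO and 366 to 437 CPM in control, and in each of the other panels the groups overlap.

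Counts of Car12 ran from 6379 to 14710 per library, and its spread in Hes1 cKO was narrow, with a coefficient of variation of 1.81% against 7.94% in control. Among the 50 genes called higher, Car12 had the highest level per kilobase of exon in both groups (94.9 CPM per kb in Hes1 cKO and 52.5 in control). Its gain of 42.4 CPM per kb was the third of the 50, while its log2 fold change ranked 40 of 50. Car12 was thus an abundant transcript with a moderate fold change among these genes.

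The bases before the annotated Car12 start are printed because Car12 is the member that rose. RefSeq (GRCm38.p6) promoter windows were found for 5 of the 9 members, Car4, Car5b, Car12, Car14 and Car15. Letters of binding motifs of Hes-family repressors (N box CACNAG, class C box CACGNG) and of forkhead factors (TGTTTA), to which Foxi1 of intercalated cells belongs, were searched on both strands in the 250 bases before the start. The window of Car12 is chr9:66713436-66713685 on the plus strand, with motif letters in capitals.
Car12: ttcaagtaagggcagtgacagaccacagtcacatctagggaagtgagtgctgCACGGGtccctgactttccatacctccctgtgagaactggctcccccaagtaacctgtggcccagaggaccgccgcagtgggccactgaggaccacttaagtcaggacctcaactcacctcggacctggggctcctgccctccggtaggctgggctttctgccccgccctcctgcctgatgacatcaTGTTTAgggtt
It holds 1 class C box, which begins 198 bases before the start, and 1 forkhead core, which begins 11 bases before it, and no N box. Of 32851 RefSeq windows of this length, 23.5% hold a class C box, 12.0% a forkhead core and 36.7% an N box. A class C box was also in the windows of Car4 and Car5b, an N box in that of Car15, and none of the 3 motifs in that of Car14. The windows of Car14 and Car15 reach into annotated exons of the same genes, so not all of their bases lie before the gene. A match describes letters in the window only.

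The cytosolic members were not called. Car2, Car3 and Car13 lie in 1 cluster of 259 kb on chromosome 3 (chr3:14641727-14900770, GRCm38), in the order Car13, Car1, Car3, Car2. Car2 (ENSMUSG00000027562), the fast cytosolic enzyme of proximal tubule and intercalated cells, read 350, 382 and 469 CPM in Hes1 cKO 1, 2 and 3, whereas control 1, 2, 3 and 4 read 458, 435, 467 and 446 CPM. Hes1 cKO 1 and 2 lay below all controls, and Hes1 cKO 3 above all of them. Its fitted log2 difference was -0.17 (SE 0.11, 95% interval -0.41 to 0.07, edgeR adjusted p 0.938), and the exact permutation p was 0.200 (n = 3 and 4). The interval covers a fall to 0.75-fold and a rise to 1.05-fold, so a rise as large as that of Car12 lies outside it. Without Hes1 cKO 3, Car2 had a log2 fold change of -0.30 (edgeR adjusted p 0.550, unadjusted 0.0136).

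Red blood cells are rich in Car2 and Car1, so erythroid markers were read beside it. Their sum was 329 to 625 CPM in Hes1 cKO and 317 to 1569.9 CPM in control, highest in control 2, with Hba-a2 under 1 CPM in every library. Car2 was lowest of the controls in control 2, though only narrowly, at 435 CPM against 446 to 467 CPM. Car1 had at most 2 counts in a library. Of the 6 erythroid markers 4 were tested, and 0 were called by edgeR, 0 also at an unadjusted p under 0.05. The part of blood in the level of Car2 was not tested.

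Car3 (ENSMUSG00000027559), a cytosolic enzyme of low activity that is abundant in fat, muscle and liver, read 116, 98.4 and 104 CPM in the Hes1 cKO libraries, whereas the controls read 122, 81.5, 86.3 and 71.9 CPM. All Hes1 cKO libraries lay above 3 of the 4 controls, and control 1 was the highest of the 7. The means were 106 ± 8.98 CPM (SD, n = 3) and 90.4 ± 21.8 CPM (SD, n = 4), with a log2 fold change of 0.23 (SE 0.16) and an edgeR adjusted p of 0.942. Without control 1 the log2 fold change was 0.41 (edgeR adjusted p 0.343, unadjusted 0.00286), again not called.

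Markers of the tissues that carry Car3 were present in part. The 7 adipocyte markers summed to 234 to 272 CPM in Hes1 cKO and 191 to 258 CPM in control, and the 5 skeletal muscle markers to no more than 2.00 CPM in any library, with Ckm, Acta1, Tnnt3 and Tnni2 under 1 CPM throughout. Control 4 had both the lowest Car3 and the lowest adipocyte sum. Car3 over the adipocyte sum was 40.3% to 44.4% in Hes1 cKO and 35.3% to 47.2% in control, and the groups overlapped. The part of fat in the level of Car3 was not tested.

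Car13 (ENSMUSG00000027555), another cytosolic enzyme, was low, at 3.56 to 4.39 CPM in Hes1 cKO and 3.29 to 4.66 CPM in control, on 60 to 88 counts per library. The log2 fold change was -0.09 (95% interval -0.52 to 0.35, edgeR adjusted p 0.990).

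Of the other surface enzymes, Car4 (ENSMUSG00000000805) is held by a lipid anchor on the brush border of the proximal tubule. It lies at chr11:84957786-84966044 on the plus strand. It was at 58.5, 35.6 and 56.3 CPM in Hes1 cKO 1, 2 and 3, whereas control 1, 2, 3 and 4 read 114, 54.5, 70.6 and 66.4 CPM. Control 1 was far above the other controls, Hes1 cKO 2 was the lowest of the 7, and the groups overlapped at control 2. The means were 50.1 ± 12.6 CPM (SD, n = 3) and 76.4 ± 25.9 CPM (SD, n = 4), and the fitted log2 difference was -0.61 (SE 0.25, 95% interval -1.18 to -0.04). Its edgeR adjusted p was 0.797 (unadjusted 0.0397) and its exact permutation p 0.114. Without control 1 the log2 fold change was -0.35 (edgeR adjusted p 0.795, unadjusted 0.0903).

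Car14 (ENSMUSG00000038526, chr3:95897768-95904691, minus strand), a membrane-spanning enzyme of the proximal tubule and thin limb, read 75.7, 76.4 and 69.0 CPM in the Hes1 cKO libraries, whereas the controls read 121, 90.2, 81.3 and 76.1 CPM. As with Car4, control 1 was the highest, and the groups met where Hes1 cKO 2 lay just above control 4. Its fitted log2 difference was -0.32 (SE 0.15; edgeR adjusted p 0.857), while without control 1 it was -0.16 (edgeR adjusted p 0.802). Exons of Aph1a on the other strand overlap those of Car14. No source used here says whether strand was counted, so reads of the pair cannot be told apart there. Aph1a itself was at 105 CPM in both groups (log2 fold change -0.01).

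The summed level of 8 proximal tubule markers, like Car4 and Car14, was highest in control 1. It was 7239 to 7782 CPM in Hes1 cKO and 7996 to 10465 CPM in control. By edgeR 0 of the 8 were called and 0 had an unadjusted p under 0.05, and all 8 had a log2 fold change below 0. Car4 was 0.663% ± 0.182 of this sum (SD, n = 3) for Hes1 cKO, whereas for control it was 0.860% ± 0.175 (SD, n = 4), and Car14 was 0.973% ± 0.080 against 1.05% ± 0.110. Both ranges overlapped between the groups. Car3 took 1.27% to 1.60% of the sum in Hes1 cKO and 0.859% to 1.16% in control, without overlap. These shares were computed after the levels had been seen, and the part of proximal tubule content in the levels was not tested.

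**Figure D2:**
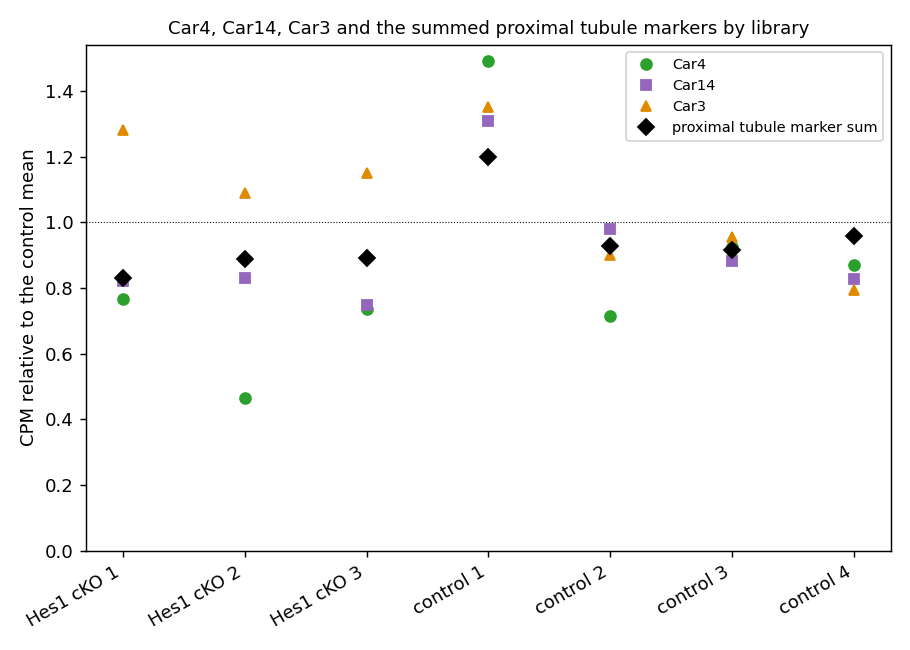
CPM of Car4, Car14 and Car3 and the summed CPM of 8 proximal tubule markers in each library (x axis), each divided by its mean over the 4 control libraries (y axis, linear, dotted line at 1). Control 1 is the highest control for all of them (1.49, 1.31, 1.35 and 1.20), and Car4 and Car14 lie below 1 in the Hes1 cKO libraries while Car3 lies at 1.09 to 1.28.

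Car15 (ENSMUSG00000090236, chr16:17835276-17838364, minus strand), a lipid-anchored surface enzyme of mouse kidney that is a pseudogene in humans, was barely counted. It had 13, 10 and 5 counts in Hes1 cKO 1, 2 and 3 and 13, 11, 17 and 21 counts in control 1, 2, 3 and 4, or 0.294 to 0.688 CPM against 0.582 to 1.15 CPM. The groups overlapped at Hes1 cKO 1 and control 2. The log2 fold change was -0.77 with a 95% interval of -1.67 to 0.12 (edgeR adjusted p 0.916), and such counts leave room for a fall to 0.314-fold or a rise to 1.09-fold. Exons of Gm20518, a gene on the same strand with 10 to 34 counts, overlap those of Car15. No source used here says how reads of both were counted, so the level of Car15 is uncertain.

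Car5b (ENSMUSG00000031373), the mitochondrial enzyme, lies at chrX:163976822-164027997 on the minus strand. Its levels were 103, 112 and 133 CPM in the Hes1 cKO libraries, whereas the controls read 121, 145, 106 and 128 CPM, with the ranges interleaved. Its log2 fold change of -0.11 had a narrow interval, -0.39 to 0.18 (edgeR adjusted p 0.974), and the libraries with high Xist (133, 106 and 128 CPM) did not stand apart from the rest. Car8 (ENSMUSG00000041261, chr4:8143362-8239041, minus strand), the inactive relative that binds the inositol trisphosphate receptor, read 5.77, 4.40 and 7.53 CPM in the Hes1 cKO libraries, whereas the controls read 3.73, 5.14, 6.26 and 10.6 CPM. The control libraries spanned the whole range of the Hes1 cKO ones, with a coefficient of variation of 46.4%. Its log2 fold change was -0.13 (95% interval -0.89 to 0.63, edgeR adjusted p 0.992), and without control 4 it was 0.22, also not called.

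**Figure D3:**
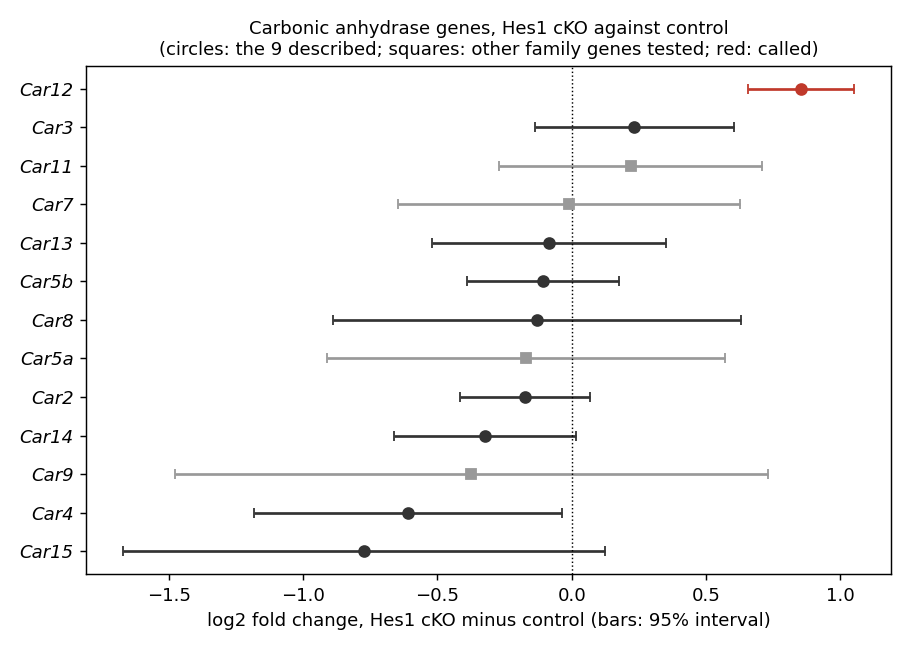
Log2 fold change of Hes1 cKO minus control (x axis) with its 95% interval for the 9 carbonic anhydrases described (circles) and the 4 other family genes that passed the low-count filter (squares). Car12 (red, 0.85) is the 1 gene called, and of the other intervals only that of Car4 (-1.18 to -0.04) leaves out 0.

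Levels of different members are compared per kilobase of annotated exon. In control the order was Car2 (186 CPM per kb), Car12 (52.5), Car4 (38.8), Car14 (36.3), Car3 (31.6), Car5b (19.7), Car13 (1.78), Car8 (1.67) and Car15 (0.447). The control ranges of Car12 and Car4, Car4 and Car14, Car14 and Car3, and Car13 and Car8 overlapped, and the other neighbours did not. In Hes1 cKO the order was Car2 (165 CPM per kb), Car12 (94.9), Car3 (37.1), Car14 (29.0), Car4 (25.5), Car5b (18.3), Car13 (1.68), Car8 (1.53) and Car15 (0.258). Here Car12 stood apart from the member below it, with a range of 92.9 to 96.0 CPM per kb against 34.3 to 40.5 for Car3. The Hes1 cKO ranges of Car14 and Car4, Car4 and Car5b, and Car13 and Car8 overlapped, and the other neighbours did not.

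The sum over the 9 members was nearly the same in the groups, with 373 ± 25.7 CPM per kb (SD, n = 3) for Hes1 cKO, and for control 369 ± 26.3 (SD, n = 4). Car12 made up 26.6%, 26.8% and 23.0% of the sum for Hes1 cKO 1, 2 and 3, whereas for control 1, 2, 3 and 4 it made up 11.8%, 16.2%, 13.9% and 15.4%. Car2 was 40.1% to 48.0% of it in Hes1 cKO and 46.4% to 53.4% in control. The share of Car14 was 6.73% to 8.42% in Hes1 cKO and 8.50% to 11.7% in control. The shares of Car12 (higher in Hes1 cKO) and Car14 (lower) did not overlap between the groups, and those of the other 7 members did. The gap for Car14 was small, 8.42% against 8.50%, and its CPM overlapped between the groups. Shares of the same sum are tied, so a larger share of Car12 lowers the rest. These shares have no counterpart over all tested genes.

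**Figure D4:**
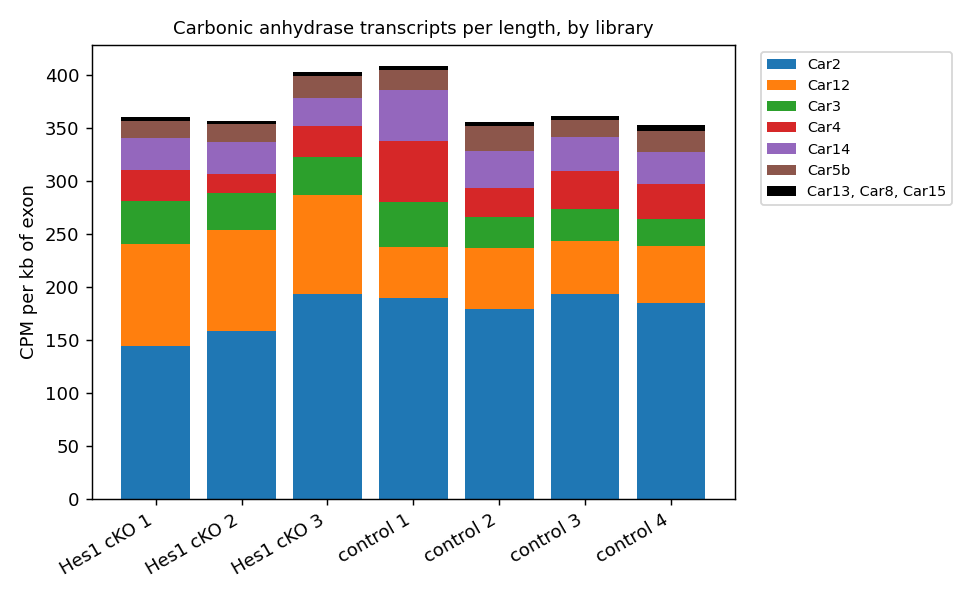
CPM per kilobase of exon of the 9 members, stacked for each library (y axis from 0). The totals lie between 352 and 408 in all 7 libraries, and the orange Car12 segment takes 23.0% to 26.8% of the stack in Hes1 cKO and 11.8% to 16.2% in control.

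The ratio of Car12 to each other member within a library, on the log2(CPM + 1) scale, is given as a description, since Car12 was taken as the numerator because it was called. Car12 had 1.51 to 2.08 times the CPM of Car2 in Hes1 cKO and 0.800 to 1.01 times in control, a difference of 1.04 in the mean log2 ratio. These ratios are not scaled by gene length. Per kilobase of exon Car12 lay below Car2 in both groups (94.9 against 165 CPM per kb in Hes1 cKO, 52.5 against 186 in control). The mean log2 ratio to Car4 differed by 1.43, to Car15 by 1.17, to Car14 by 1.15, to Car5b by 0.96, to Car13 by 0.92, to Car8 by 0.91 and to Car3 by 0.60. On this scale the groups did not overlap in any of the 8 ratios. All 8 share Car12, whose own levels did not overlap, so they are not separate results. The ratios have no counterpart over all tested genes. As plain ratios of counts, those of Car12 to Car8 did overlap, with 93.7 to 165 in Hes1 cKO and 38.6 to 98.1 in control.

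Marker levels of collecting duct cells were read beside Car12. By edgeR, 4 of 4 markers shared by intercalated cells and 4 of 4 type B markers were called higher. Of all tested genes, 0.320% were called higher. The shared markers were Foxi1, Atp6v1b1, Atp6v1g3 and Atp6v0d2, and the type B markers Slc26a4, Slc4a9, Insrr and Hmx2. The marker lists were chosen with earlier results on these libraries known, so these calls are no separate support. Of the type A markers 0 of 4 were called, with 4 higher at an unadjusted p under 0.05. Of the principal cell markers 1 of 7 tested was called lower, with 5 lower at an unadjusted p under 0.05. All 7 had a log2 fold change below 0. Of all tested genes, edgeR called 0.0192% lower, and 5.95% had an unadjusted p under 0.05 in either direction. The 4 markers shared by intercalated cells summed to 523 to 535 CPM in Hes1 cKO and 196 to 278 CPM in control, the 4 type A markers to 417 to 447 against 262 to 362 CPM, and the 4 type B markers to 701 to 823 against 171 to 261 CPM. The 8 principal cell markers, with Avpr2 under 1 CPM throughout, summed to 759 to 1212 CPM against 1241 to 1888 CPM. None of these sums overlapped between groups. Among single tested genes, 3.71% were without overlap and higher in Hes1 cKO, and 3.29% without overlap and lower. Set against the shared intercalated sum, Car12 was 135% to 137% of it in Hes1 cKO and 140% to 186% in control. Against the type B sum it was 88.4% to 101% and 157% to 214%, both without overlap and lower in Hes1 cKO. Against the type A sum it was 158% to 174% and 105% to 167%, with overlap. Against the principal cell sum it was 58.2% to 95.8% and 20.2% to 35.2%, without overlap and higher in Hes1 cKO. The part of intercalated cell number in its rise was not tested.

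The transporters that work with carbonic anhydrases were read from a list of 27 bicarbonate and proton transport genes, chosen with earlier results on these libraries known. Of the 25 that were tested, 7 were called higher and 0 lower, while 0.320% of all tested genes were called higher. The median log2 fold change was 0.10 over the list and -0.0064 over all tested genes. At an unadjusted p under 0.05, 10 were higher and 0 lower, against 5.95% of all tested genes in either direction. The 7 were the exchangers Slc4a9 and Slc26a4, the proton pump subunits Atp6v1b1, Atp6v1c2, Atp6v1g3 and Atp6v0d2, and the H,K-ATPase Atp12a, with log2 fold changes from 0.73 (Atp6v1b1) to 2.71 (Atp12a). Car12 at 0.85 lay near the lower end of them. Atp6v1b1, Atp6v1g3 and Atp6v0d2 are also among the shared intercalated markers above, and Slc4a9 and Slc26a4 among the type B markers. The marker calls and these calls are thus partly the same genes and not separate results.

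Some partners that were not called are given too, chosen after their values had been seen. Slc4a4, the basolateral sodium bicarbonate cotransporter, had a log2 fold change of -0.28 (edgeR adjusted p 0.877) and Slc9a3, the apical sodium proton exchanger, one of -0.13 (edgeR adjusted p 0.942). Slc4a1, the basolateral anion exchanger of type A intercalated cells, averaged 129.8 ± 8.16 CPM in Hes1 cKO (SD, n = 3), and in control 97.4 ± 20.6 CPM (SD, n = 4), with a log2 fold change of 0.41 (edgeR adjusted p 0.718). The ammonia channels Rhcg (-0.18) and Rhbg (-0.47) were not called either. Slc26a7 had a log2 fold change of 0.78 (edgeR adjusted p 0.184, unadjusted 0.00101). Slc4a5 had one of 0.66 (edgeR adjusted p 0.731, unadjusted 0.0247). Of the 25 tested genes of the list, called or not, 15 had a log2 fold change above 0 and 10 below 0.

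The genes whose levels followed Car12 most closely were found by the root mean square difference of log2(CPM + 1), centred on the 7 libraries, among 14143 genes with a mean of at least 1 CPM. They were Ank, a membrane exporter of phosphate compounds (0.0738), Itgb4, an integrin subunit of epithelial anchoring (0.102), and Hspa1a, an inducible heat shock protein (0.110), where the median gene lay at 0.459. Ank averaged 30.8 ± 1.75 CPM in Hes1 cKO (SD, n = 3), and in control 17.8 ± 0.771 CPM (SD, n = 4). Itgb4 was at 35.8 ± 3.49 against 19.0 ± 1.31 CPM, and Hspa1a at 44.1 ± 3.06 against 27.7 ± 2.89 CPM. All 3 were called in the same fit, which their choice by likeness to a called gene on the same libraries favours and which is no separate support. Hspa1a has a near-identical neighbour, Hspa1b, and its counts are uncertain.

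**Figure D5:**
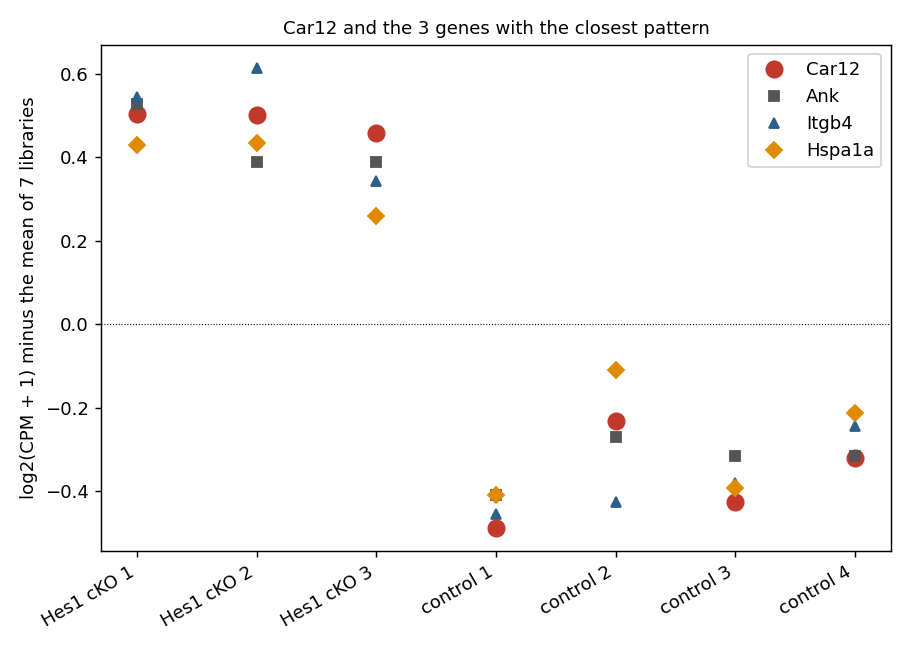
Log2(CPM + 1) minus the mean over the 7 libraries (y axis) for Car12 and the 3 genes nearest to it, by library (x axis). All 4 genes lie above 0 in each Hes1 cKO library and below 0 in each control library.

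The 7 other carbonic anhydrase genes of the mouse were low. Car5a, Car7, Car9 and Car11 passed the low-count filter, with 30 to 150 counts per library, and edgeR called 0 of the 4, 0 also at an unadjusted p under 0.05 (log2 fold changes -0.37 to 0.22). Car9, an enzyme induced by low oxygen, was at 8.60 CPM in control 1 and at 1.65 to 3.34 CPM in the other controls, against 2.12 to 3.91 CPM in Hes1 cKO. Car1, Car6 and Car10 had 0 to 3 counts in a library and were not tested.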

How the data were processed

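Whole-kidney RNA was sequenced as 150 bp pairs, per the labels' protocols. The deposited values are raw counts per gene, and FastQC, STAR, DESeq2 and the builds mm10 and GRCm38 are named in the submitters' processing notes, with no role or version. The counting program, its annotation and whether it used strand: not given in the sources used here. Titles name 7 Hes1 cKO and 9 control kidneys, while the series text gives 9 and 7; titles were followed. Columns named MT (3) and WT (4) of the first table were used, and 9 columns of per-sample values in the other, whose names show no genotype, were not.

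Genes were filtered by filterByExpr (minimum count 10), scaled by TMM and tested with edgeR 4.0.16 in R 4.3.3, without covariates. Standard errors came from the F statistic. Single genes were tested by an exact two-sided permutation test (absolute difference of means, scipy 1.17.1) on log2(CPM + 1). Level per length used the union of GENCODE M21 exons (GRCm38). Coding sequences were aligned with Biopython 1.88. Some items are not reported here.

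Members and gene lists were chosen with earlier results of these data known; ratios to marker sums were added after values had been seen. Named genes are the members, Hes1, the other family genes, the called transport genes, and the 3 nearest genes by level for each called member; uncalled transport genes, marker genes and genes overlapping a member were named after values had been seen. Marker lists cover intercalated, principal, proximal tubule, thick limb and distal tubule, erythroid, adipocyte, skeletal muscle and adrenal cortex cells. Alternatives were DESeq2 1.42.0, limma-voom 3.58.1, other scalings and filters, an Xist covariate and leaving out each library.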

Additional observations from a re-analysis of the deposited data

Results flagged for a closer look

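Among 17 genes checked in the 4 control libraries, 2 transport genes had a library far from the others, and chance alone puts 1 in about 20 such groups this far out. Atp6v1b1 was lowest in control 1, where the gap to the next library took 0.959 of the range. Atp6v1g3 was also lowest in control 1, with a gap of 0.832 of the range. None of the 9 carbonic anhydrases passed this limit; the nearest were Car4 (0.729), Car3 (0.711) and Car14 (0.688), each highest in control 1.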

How the results depend on the processing

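Car12 was the 1 member called under each of the 14 alternatives; its log2 difference was lowest at 0.81 (control 1 left out) and highest at 0.90 (control 2 left out), with adjusted p-values up to 0.0321 (without Hes1 cKO 2). No alternative called another member; 7 of the other 8 kept their sign in every alternative that tested them, and Car8 changed sign in 3. Car15 was not tested at a mean CPM of at least 1. The count of called genes moved from 53 to 130 with DESeq2's Wald test and to 102 without a low-count filter, and ranged from 25 (without Hes1 cKO 2) to 47 (without control 2) when 1 library was left out, with 27 without Hes1 cKO 1; those fits rest on fewer samples. No paired analysis was possible because the columns carry no replicate number shared by the groups. Car15, Car13 and Car8 rest on the fewest counts.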

Other observations

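The lists of other nephron segments were not described above. Of the 4 thick ascending limb markers, 0 were called by edgeR, 2 had an unadjusted p under 0.05, both lower in Hes1 cKO, and their sum overlapped between groups (4677 to 5280.2 CPM against 4569 to 5825 CPM). Of the 3 distal convoluted tubule markers, 0 were called by edgeR, 0 had an unadjusted p under 0.05, and the sums were 650.4 to 709 CPM against 663 to 873 CPM.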
